A study of Cricetiscus sungorus with 24 samples.

Results

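Kidney RNA of Siberian hamsters (*Phodopus sungorus*) was examined for 10 genes that mark injured or dedifferentiated tubule cells. They were chosen by name as *Havcr1*, *Lcn2*, *Clu*, *Spp1*, *Vim*, *Krt7*, *Krt8*, *Krt18*, *Krt19* and *Sox9*, and each was read from the transcript with the highest total count. They are 10 of 15960 genes listed in either of 2 experiments. All 10 were listed in the prolactin experiment, and 6 in the photoperiod experiment, where *Havcr1*, *Lcn2*, *Krt7* and *Sox9* had no row in the table analysed here.

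In experiment 1, adult male hamsters were kept in long photoperiod with 16 h of light (LP) or were moved to short photoperiod with 8 h of light for 12 weeks (SP12wk) or 28 weeks (SP28wk), with 4 animals in each group. In experiment 2, adult females held in short photoperiod for 8 weeks received vehicle (SAL) or 18 µg of prolactin per injection (PRL) daily for 3 days, with 6 animals in each group. The vehicle was DMSO in saline. The study measured narrower convoluted tubules at SP12wk than in LP and wider ones in PRL than in SAL, so the question here was whether kidneys with narrow tubules carried more RNA of injury genes. Sex, treatment and sequencing flow cell differed between the experiments, so values were compared within an experiment only.

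When a tubule epithelium is injured, surviving cells lose their brush border and transporters, spread over the bare basement membrane, divide and mature again. *Havcr1* encodes kidney injury molecule 1, a receptor that lets proximal tubule cells take up dead neighbours, and *Lcn2* encodes the iron-binding secreted protein NGAL. Both are near absent from healthy tubules and are used as injury biomarkers. *Sox9* encodes a transcription factor of repairing tubule cells, *Clu* a secreted chaperone and *Spp1* the secreted phosphoprotein osteopontin, which healthy thick limbs and distal tubules also make. *Vim* encodes the intermediate filament of mesenchymal cells, which dedifferentiated epithelium also carries. *Krt8* and *Krt18* encode the partner keratins of simple epithelia, and *Krt7* and *Krt19* are keratins of collecting duct and urothelium that spread to other segments after injury.

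Libraries were shallow. The transcripts used held 15687 to 57585 counts per library in experiment 1 and 174053 to 756523 in experiment 2, so that 1 count was worth 17.4 to 63.7 CPM (counts scaled to a library total of 1000000) in the former and 1.32 to 5.75 CPM in the latter. Proximal tubule genes were plentiful, as in kidney tissue. Of a list of 35, the 30 listed in experiment 1 summed to 3315 to 6270 CPM. The 32 listed in experiment 2 summed to 5782 to 13997 CPM, where *Dnase1* alone had a mean of 3861 CPM. LP replicates 2 and 3 stood apart from the other libraries of experiment 1, with composition factors of 1.41 and 1.25 against 0.770 to 1.14. Hamster reads had been aligned to mouse sequence, and how far sequence divergence lowered the count of each gene was not tested. In whole kidney, fewer cells of a type and less RNA per cell cannot be told apart.

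The classical injury markers were at the edge of detection. In experiment 2, *Havcr1* had 1 count, *Lcn2* 1 count and *Sox9* 1 count over all 12 libraries. The *Havcr1* and *Lcn2* counts were both in PRL replicate 5, the shallowest library of that experiment, where each was worth 5.75 CPM. The *Sox9* count was in PRL replicate 3, at 3.95 CPM. None of the 3 genes had a count in any of the 6 SAL libraries. Summed over that group, 3 counts would have been 1.40 CPM, which is the level that a count of 0 allows, covering counting error only. In PRL, 1 count over the 6 libraries was 0.425 CPM, with an exact Poisson 95% interval from 0.0108 to 2.37 CPM that covers counting error only. The interval holds the SAL limit, so no difference in these 3 genes was detectable at this depth.

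*Spp1* was the member with the widest spread between the photoperiod groups. In LP its level was 47.0, 224, 333 and 155 CPM in replicates 1 to 4, from 1, 4, 6 and 4 counts. In SP12wk it was 40.9, 63.7, 50.2 and 56.5 CPM, from 1, 1, 1 and 2 counts, and in SP28wk it was 0, 0, 57.1 and 69.5 CPM, from 0, 0, 2 and 4 counts. Of the LP libraries 3 were above every short-day library, while LP replicate 1 lay within the SP12wk range, so the groups overlapped.

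The group means of *Spp1* were 190 ± 120 CPM in LP, 52.8 ± 9.71 in SP12wk and 31.6 ± 36.9 in SP28wk (SD, n = 4). SP12wk minus LP gave a log2 fold change of −1.50 ± 0.82 (SE, adjusted p = 0.642 by edgeR's quasi-likelihood test), and the exact permutation p was 0.114. SP28wk minus LP gave −1.67 ± 0.78, with an unadjusted edgeR p of 0.0333, an adjusted p of 0.543 and an exact permutation p of 0.0857. The smallest exact p that 4 animals against 4 allow is 0.0286. *Spp1* had its lower means in short days, and neither difference passed the test over all genes. With LP replicates 2 and 3 left out together, the log2 fold changes were −0.94 and −1.16 and the unadjusted p-values 0.384 and 0.268.

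*Slc12a1*, the salt transporter of the thick limb, where *Spp1* is made in healthy kidney, followed the same order of group means. Its level was 139 ± 184 CPM in LP, 33.7 ± 41.4 in SP12wk and 11.5 ± 14.03 in SP28wk (SD, n = 4), with a log2 fold change of −2.43 ± 1.05 for SP28wk minus LP (adjusted p = 0.530, edgeR) and an exact permutation p of 0.429. *Slc12a1* had 16 counts over the 12 libraries. Most fitted genes of the thick limb list went the other way. Of the 5 fitted in that list 4 were above 0 in SP12wk minus LP, with a median log2 fold change of 0.28. In SP28wk minus LP 3 were, with a median of 0.44. Over the 8 thick limb markers, 6 were listed, *Kcnj1* and *Ptger3* were without a row, and the summed level was 117 to 555 CPM in LP, 0 to 452 in SP12wk and 39.5 to 260 in SP28wk. That sum includes *Slc12a1*, so its means of 257 ± 201, 194 ± 212 and 135 ± 92.0 CPM (SD, n = 4) partly repeat that gene. The order among the other markers cannot be read from these means. The part of thick limb RNA in the *Spp1* values was not tested.

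*Vim*, the mesenchymal filament, had like levels in LP and SP12wk. Its level was 141, 112, 55.5 and 117 CPM in LP, 163, 63.7, 100.4 and 113 CPM in SP12wk, and 158, 124, 143 and 243 CPM in SP28wk. Means were 106 ± 36.2, 110 ± 41.2 and 167 ± 52.5 CPM (SD, n = 4), from 1 to 14 counts per library. LP and SP12wk spanned much the same range, with a log2 fold change of 0.26 ± 0.76 (adjusted p = 0.961, edgeR) and a 95% interval from −1.23 to 1.75. SP28wk was the highest group, and its lowest library lay below the highest of LP. For SP28wk minus LP the log2 fold change was 1.03 ± 0.67 (adjusted p = 0.750, edgeR) and the exact permutation p was 0.0571, and for SP28wk minus SP12wk it was 0.77 ± 0.65 (adjusted p = 0.980, edgeR).

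The other listed members had too few counts for a comparison between photoperiods. *Clu* had 4 counts in 12 libraries, 1 in SP12wk and 3 in SP28wk. In experiment 1 *Clu*, *Spp1* and *Krt19* were read from other transcripts than in experiment 2. *Krt18* had 3 counts, *Krt8* 2 and *Krt19* 2, the last both in LP. For a gene without a count in a group, 3 counts over its libraries would have been 36.2 CPM in LP, 31.4 in SP12wk and 21.1 in SP28wk. Levels under these could not be told from 0.

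**Figure D1:**
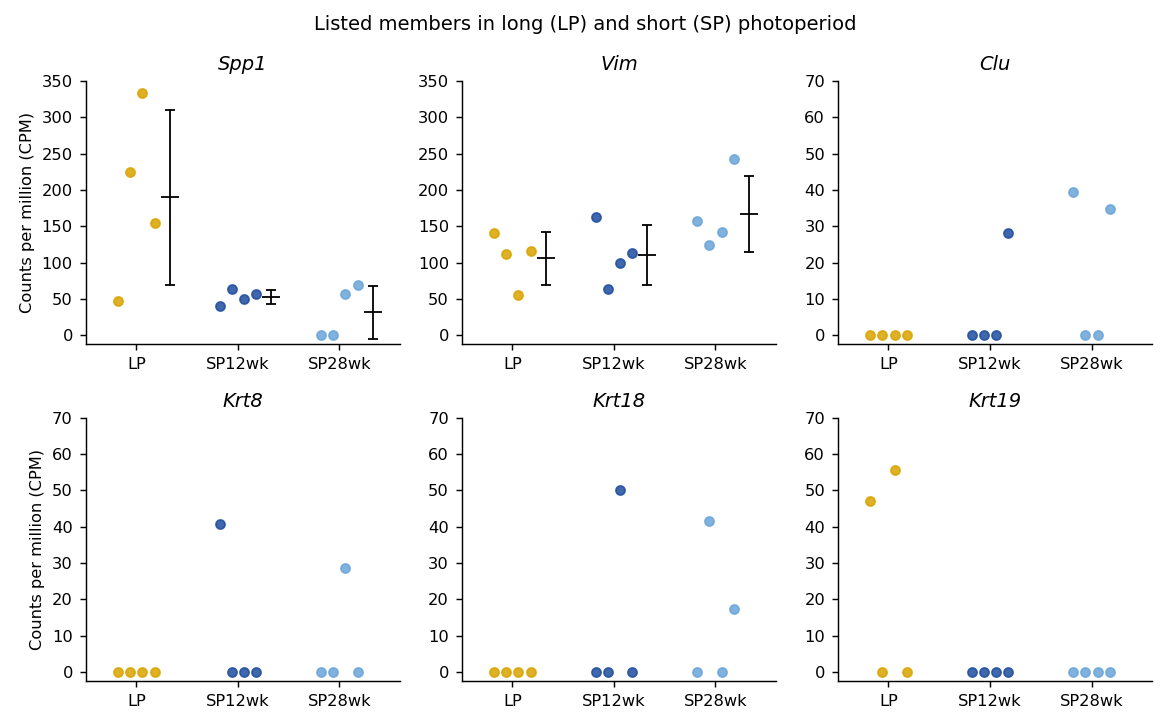
Level in CPM (linear y axes, on a wider scale for Spp1 and Vim) of the 6 members listed in experiment 1, with 1 point per library in LP, SP12wk and SP28wk and, for Spp1 and Vim, the mean and SD beside the points. Spp1 reached 333 CPM in LP and at most 69.5 CPM in the short-day groups, and most libraries held 0 counts of Clu, Krt8, Krt18 and Krt19.

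Of the 10 members, 2 (*Spp1* and *Vim*) reached a count in at least 4 libraries of experiment 1 and were fitted with all other such genes, 5086 in total. With edgeR, 0 of these 2 passed an adjusted p of 0.05 in any of the 4 photoperiod comparisons. Over all genes fitted, the share called was 0.0197% for SP12wk minus LP, 0.138% for SP28wk minus SP12wk, 0.216% for SP28wk minus LP and 0.0393% for SP12wk minus the mean of LP and SP28wk. At an unadjusted p under 0.05 the shares over all genes were 7.26%, 6.1%, 8.57% and 6.78% in the same order. The only member at that threshold was *Spp1*, lower in SP28wk than in LP, where 1.97% of all genes were lower. DESeq2 likewise gave 0 members at the adjusted threshold and *Spp1* in that comparison at the unadjusted one. The last comparison sets the short-day kidneys with narrow tubules against the other groups together, and its log2 fold changes were −0.67 ± 0.81 for *Spp1* (adjusted p = 0.960, edgeR) and −0.26 ± 0.63 for *Vim* (adjusted p = 0.972). The median log2 fold change of all genes was 0.16 and 0.18 in the 2 comparisons of SP28wk with a single group, and within 0.06 of 0 in the other 2.

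The prolactin experiment was sequenced more deeply, and 7 members were fitted in it: *Clu*, *Spp1*, *Vim*, *Krt7*, *Krt8*, *Krt18* and *Krt19*. None of the 7 passed the adjusted threshold with edgeR, where the share called over 10696 genes was also 0%. At an unadjusted p under 0.05, *Clu*, *Krt8* and *Krt18* were higher in PRL, which is 3 of 7 members, against 2.54% of all genes higher at that threshold and 4.88% at it in either direction. DESeq2 gave the 7 no adjusted p and had 2, *Clu* and *Krt8*, at that unadjusted threshold. Only members with a count in at least 6 of 12 libraries could be fitted, so the 7 are not all members. The log2 fold change was above 0 for 6 of the 7, with a median of 0.55, beside a median of 0.03 over all genes. All 7 overlapped between SAL and PRL, where 0.112% of genes had every PRL library above every SAL library.

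*Krt8* was the keratin with the highest count. In SAL it ranged from 33.7 to 100.01 CPM with a median of 49.7, and in PRL from 64.4 to 109 CPM with a median of 99.4. SAL replicate 1 was as high as the middle of the PRL group, and PRL replicate 4 was the lowest of the PRL group. The means were 58.2 ± 26.4 and 93.8 ± 18.0 CPM (SD, n = 6). The log2 fold change was 0.66 ± 0.26 (unadjusted p = 0.0145, adjusted p = 0.754, edgeR), and the exact permutation p, for this gene alone and two-sided, was 0.0281.

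Its partner *Krt18* was lower in count, at 0 to 21.6 CPM in SAL with a median of 7.90 and 4.60 to 35.6 CPM in PRL with a median of 19.4. SAL replicate 3 had no count, and PRL replicates 1, 3 and 6 were above every SAL library. The log2 fold change was 1.08 ± 0.47 (unadjusted p = 0.0279, adjusted p = 0.948, edgeR), with an exact permutation p of 0.0909.

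The other 2 keratins were less separated. *Krt7* spanned 4.57 to 33.7 CPM in SAL and 9.20 to 35.6 CPM in PRL, with medians of 14.2 and 26.9, and its log2 fold change of 0.50 ± 0.37 had a 95% interval from −0.23 to 1.24 (adjusted p = 0.999, edgeR). *Krt19* spanned 2.60 to 27.5 CPM in SAL and 5.75 to 42.5 CPM in PRL, with medians of 12.4 and 19.0, and a log2 fold change of 0.55 ± 0.43 with an interval from −0.29 to 1.38. The 2 genes overlapped between the groups over much of their range, and the exact permutation p was 0.234 for *Krt7* and 0.361 for *Krt19*.

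*Clu*, the secreted chaperone, had the largest ratio to its error among the 7. SAL libraries spanned 6.12 to 32.0 CPM with a median of 16.3, and PRL libraries 11.5 to 56.7 CPM with a median of 29.9. PRL replicates 1, 2 and 6, at 36.8, 47.6 and 56.7 CPM, were above every SAL library, and the other 3 PRL libraries lay within the SAL range. Those 3 high libraries were also the 3 deepest of the PRL group, and the part of depth in this value was not tested. The means were 17.4 ± 9.50 and 31.9 ± 18.1 CPM (SD, n = 6). The log2 fold change was 1.02 ± 0.37 (unadjusted p = 0.00943, adjusted p = 0.652, edgeR) and the exact permutation p 0.117. With the deepest 2 PRL libraries (replicates 1 and 2) left out, it was 0.73 with an unadjusted p of 0.124, and *Krt8* and *Krt18* then had unadjusted p-values of 0.0809 and 0.104, so that no member stayed under 0.05.

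*Spp1* and *Vim* gave nearly equal means in the groups. *Spp1* was 130 ± 36.4 CPM in SAL and 129 ± 19.2 CPM in PRL (SD, n = 6), with a log2 fold change of −0.10 ± 0.22 and a 95% interval from −0.53 to 0.34 (adjusted p = 0.999, edgeR). *Vim* was 64.8 ± 27.4 and 75.8 ± 28.4 CPM, with a log2 fold change of 0.05 ± 0.27 and an interval from −0.48 to 0.58. For *Spp1* 5 transcripts carried the same counts, so which of them was expressed cannot be told from this table.

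**Figure D2:**
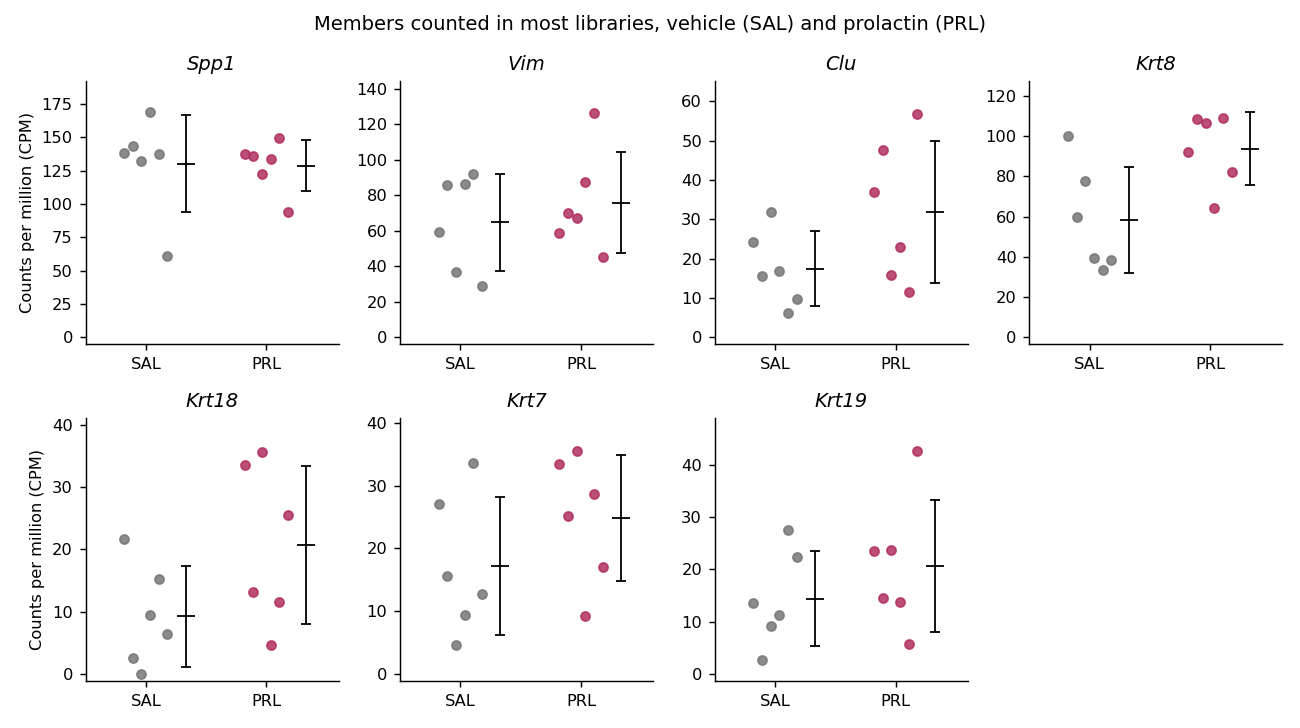
Level in CPM (linear y axes, each with its own range) of the 7 fitted members in SAL and PRL, with 1 point per library in order of replicate and the mean and SD of the 6 libraries beside them. All 7 overlapped between groups, and Krt8 showed the clearest shift, from a mean of 58.2 to one of 93.8 CPM.

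Genes of the urothelium, the lining of the renal pelvis that also makes these keratins, were higher in most PRL libraries than in most SAL libraries. The summed level of 7 urothelium markers was 162, 151, 183, 164, 343 and 189 CPM in SAL replicates 1 to 6 and 315, 330, 558, 198, 477 and 360 CPM in PRL replicates 1 to 6. All 7 were listed and had counts, 6 were fitted, and all 6 had a log2 fold change above 0, beside 52.6% of all genes. At an unadjusted edgeR p under 0.05, 4 of the 6 (*Upk1a*, *Upk2*, *Upk3a* and *Krt15*) were higher, beside 2.54% of all genes. The list was chosen with earlier results of these data known. *Upk3a*, a uroplakin of the urothelial plaque, was 146 ± 43.1 CPM in SAL and 232 ± 51.6 CPM in PRL (log2 fold change 0.63 ± 0.22, adjusted p = 0.547, edgeR), with an exact permutation p of 0.0152. *Upk1a*, another uroplakin, was 25.9 ± 22.8 and 72.2 ± 39.3 CPM, with an adjusted p of 0.285 (edgeR). That p was 0.00621 with no filter on counts and 0.00734 with a replicate block. No other urothelial gene was called under any edgeR setting, and DESeq2 called 0 of the 6 and gave none of them an adjusted p.

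The summed level of *Krt7*, *Krt8*, *Krt18* and *Krt19* was 162, 80.6, 91.3, 69.6, 110 and 80.0 CPM in SAL replicates 1 to 6 and 183, 161, 202, 92.0, 155 and 167 CPM in PRL replicates 1 to 6. PRL replicate 4 was the lowest PRL library in both sums and lay among the SAL libraries, and PRL replicate 3 was the highest in both. The other libraries did not rank alike in the sums. PRL replicate 5 was above PRL replicate 1 in the urothelial sum (477 and 315 CPM) and below it in the keratin sum. SAL replicate 5 had the highest urothelial sum of SAL, at 343 CPM, with a keratin sum of 110 CPM. SAL replicate 1 had a high keratin sum with a low urothelial sum. The part of urothelial RNA in the keratin values was not tested.

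**Figure D3:**
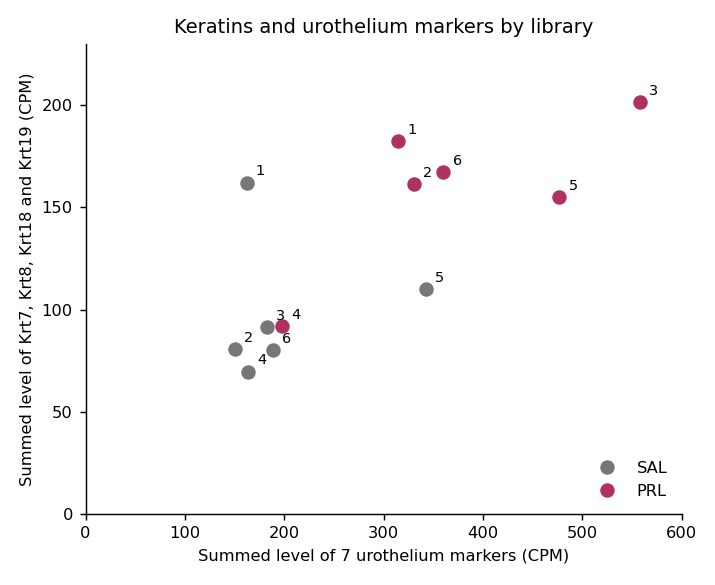
Summed level in CPM of the 4 keratins (y axis) against that of 7 urothelium markers (x axis), with 1 point per library of experiment 2, numbered by replicate. Of the PRL libraries 5 lie above 300 CPM of urothelium markers and above 150 CPM of keratins, and PRL replicate 4 lies among the SAL libraries at 198 and 92.0 CPM.

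Collecting duct genes, the other source of *Krt7* and *Krt19* in healthy kidney, were less separated. Their sum over 16 markers was 637 to 968 CPM in SAL and 767 to 924 CPM in PRL, with 13 of 15 fitted genes above 0. At an unadjusted edgeR p under 0.05, 2 of the 15 were higher, beside 2.54% of all genes. These were *Aqp2*, the water channel (10.3 ± 7.89 and 17.3 ± 8.60 CPM), and *Scnn1a*, a sodium channel subunit (1.72 ± 1.99 and 4.34 ± 3.46 CPM). Adipose genes also had higher sums in PRL, at 48.9 to 334 CPM with a median of 100.4 in SAL and 118 to 408 CPM with a median of 223 in PRL. All 4 fitted adipose genes were above 0, with a median log2 fold change of 0.73, beside 0.03 over all genes. Of the 4, 1 (*Cfd*) was under an unadjusted edgeR p of 0.05, beside the same 2.54% of all genes. With a replicate block 3 were. The part of adipose tissue in the members' values was not tested. The sums of all lists, urothelium included, overlapped between SAL and PRL. The others were 439 to 1101 and 598 to 1189 CPM for thick limb, 327 to 845 and 301 to 1000 CPM for distal convoluted tubule, 19.2 to 45.9 and 17.2 to 35.6 CPM for podocyte and parietal epithelium, 122 to 219 and 126 to 212 CPM for endothelium, and 176 to 343 and 248 to 348 CPM for stroma and smooth muscle. They were 57.6 to 137 and 59.3 to 155 CPM for immune cells, where *Ptprc* and *Cd3e* had no count, 9595 to 18117 and 8908 to 19490 CPM for blood, and 3.20 to 21.6 and 4.60 to 23.0 CPM for adrenal gland. In these 8 lists, 0 genes were called or under an unadjusted p of 0.05 with edgeR. In experiment 1, edgeR and DESeq2 called 0 genes of the 11 lists in any comparison. There *Slc12a1* of thick limb, *Fxyd4* and *Gata3* of collecting duct, *Flt1* of endothelium, *Tagln* of smooth muscle and *Upk3a* were under an unadjusted edgeR p of 0.05 in at least 1 comparison, beside 6.1% to 8.57% of all genes in each. *Fxyd4* and *Gata3* were lower at SP12wk, and *Slc12a1* was lower in SP28wk than in LP. *Flt1*, with 0 counts in LP, *Tagln* and *Upk3a* were higher in SP28wk. These genes had 6 (*Gata3*) to 43 (*Tagln*) counts over the 12 libraries. Their exact permutation p-values there were 0.0727 or above, except 0.0286 for *Tagln* in SP28wk minus SP12wk.

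**Figure D4:**
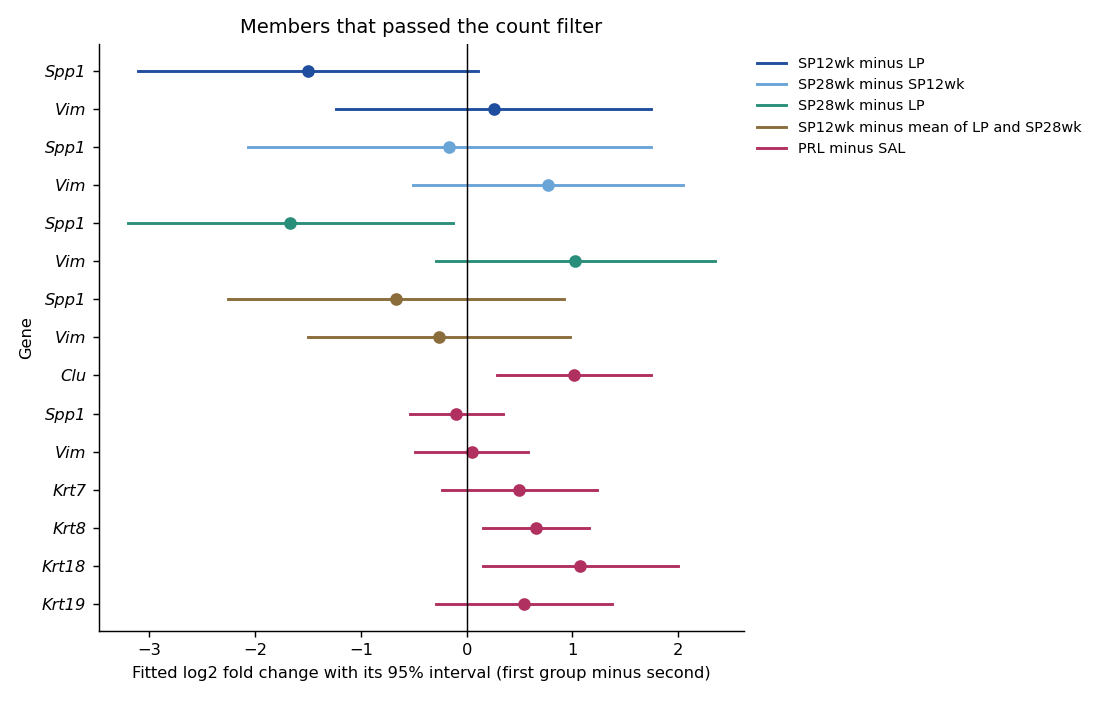
Fitted log2 fold change (x axis, first group minus second) with its 95% interval for each member that passed the count filter, coloured by comparison. The intervals of Spp1 and Vim are wider in the 4 photoperiod comparisons than in PRL minus SAL, and those of Clu, Krt8 and Krt18 in PRL minus SAL lie above 0 before adjustment over all genes.

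A wider list of 50 genes of the tubule injury response, without the members, was read beside them. In experiment 2, 44 were listed and 35 fitted, 0 passed the adjusted threshold with edgeR or DESeq2, which gave no adjusted p to 26 of them, and 29 had a log2 fold change above 0. The median was 0.23, beside 0.03 over all genes. At an unadjusted edgeR p under 0.05, 5 of the 35 were higher in PRL and 1 lower, beside 2.54% and 2.34% of all genes. The higher ones included *Anxa2* and *Anxa5*, annexins that bind membrane lipids, and *S100a11*, which encodes a calcium-binding protein. The others were *Plin2*, a lipid droplet coat protein, and *Itgb6*, an epithelial integrin subunit. *Anxa2* was 113 ± 33.8 CPM in SAL and 166 ± 24.4 CPM in PRL (adjusted p = 0.905, edgeR), and *Itgb6* 2.15 ± 2.54 and 10.1 ± 5.35 CPM (adjusted p = 0.564). The lower one was *Vcam1*, the adhesion molecule of failed repair, at 5.93 ± 4.34 CPM in SAL and 0.972 ± 1.18 CPM in PRL (adjusted p = 0.822). The 3 with the highest level were near equal, *S100a6* at 1063 ± 270.0 and 1177 ± 441 CPM, *Tmsb4x* at 1391 ± 174 and 1340 ± 308 CPM, and *Tmsb10* at 1035 ± 132 and 1255 ± 256 CPM.

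In experiment 1, 32 of the 50 were listed and 22 fitted, and 0 passed the adjusted threshold with edgeR or DESeq2 in any of the 4 comparisons. SP12wk minus LP had 12 above 0 and a median log2 fold change of 0.05. It had 0 genes at an unadjusted edgeR p under 0.05 in either direction, beside 7.26% of all genes. SP28wk minus LP had 15 above 0 and a median of 0.48, beside 0.18 over all genes. At the unadjusted threshold 6.61% of all genes were higher, and 3 of the 22 list genes. These were *Tmsb10*, an actin-binding peptide, at 297 ± 147 CPM in LP and 652 ± 269 in SP28wk (unadjusted p = 0.00308, adjusted p = 0.296, edgeR), *S100a11* at 53.4 ± 78.6 and 203 ± 90.1 CPM (unadjusted p = 0.00472, adjusted p = 0.353), and the transcription factor *Klf6* at 0 and 42.7 ± 33.7 CPM (unadjusted p = 0.0158, adjusted p = 0.501). The exact permutation p-values of *Tmsb10*, *S100a11* and *Klf6* there were 0.0857, 0.0857 and 0.143. *Klf6* had 7 counts over the 12 libraries and 0 in LP. It therefore passed the count filter only through short-day libraries, and no conclusion is drawn from its difference. SP28wk minus SP12wk also had 15 above 0, with a median of 0.34 beside 0.16 over all genes. There *Tmsb10* and *S100a6* were higher at that threshold, as were 4.6% of all genes. In SP12wk minus the mean of LP and SP28wk 6 were above 0, with a median of −0.12 beside −0.06. *S100a6* was lower at the threshold, as were 3.52% of all genes. *S100a6*, a calcium-binding protein of dividing cells, had the highest CPM of the list and its lowest mean at SP12wk. Its level was 3199, 1010, 3773 and 6021 CPM in LP, 1962, 2996, 2811 and 1865 CPM in SP12wk, and 5454, 5186, 4913 and 3786 CPM in SP28wk. The 4 SP28wk libraries were all above the 4 SP12wk libraries, as for 1.85% of all genes fitted, while LP spanned both. SP28wk minus SP12wk gave a log2 fold change of 1.18 ± 0.46 (unadjusted p = 0.0111, adjusted p = 0.614, edgeR), and the exact permutation p was 0.0286. With LP replicates 2 and 3 left out of the fit, the same difference was 1.13 ± 0.25 with an adjusted p of 0.00254. That was the only setting to call it. Under the others the adjusted p was 0.166 to 1.00, and with sums over transcripts the unadjusted p was 0.0526. *Tmsb4x* and *Igfbp7*, the next in level, were 2069 ± 1008 and 2270 ± 997 CPM in LP, 2049 ± 361 and 1705 ± 297 CPM in SP12wk, and 2210 ± 391 and 1581 ± 353 CPM in SP28wk.

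Loss of proximal tubule identity, the other side of dedifferentiation, was read from 35 genes of mature proximal tubule. In SP12wk minus LP 19 were fitted, 15 had a log2 fold change above 0, the median was 0.29 beside −0.00 over all genes, and 0 were under an unadjusted p of 0.05. *Lrp2*, the endocytic receptor megalin, was 1032 ± 227 CPM in LP, 1150 ± 364 in SP12wk and 902 ± 63.3 in SP28wk. *Aqp1*, the water channel of proximal tubule, was 996 ± 696, 477 ± 216 and 358 ± 123 CPM, and *Miox*, the inositol oxygenase, 804 ± 658, 782 ± 364 and 973 ± 274 CPM. In SP28wk minus LP 14 of the 19 were above 0, with a median of 0.62 beside 0.18 over all genes. At an unadjusted edgeR p under 0.05, 3 were higher and 1 lower, beside 6.61% and 1.97% of all genes. *Gatm* and *Hao2* were among the higher, and *Aqp1* was the lower one. Their exact permutation p-values were 0.0857, 0.429 and 0.171. *Hao2* had 7 counts over the 12 libraries and 0 in LP. Of the list, 0 were called by edgeR or DESeq2 in any of the 4 comparisons.

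In PRL minus SAL, 32 of the 35 were fitted, 17 had a log2 fold change above 0, the median was 0.02 beside 0.03 over all genes, and 0 were called by edgeR or DESeq2 or were under an unadjusted p of 0.05 with either. DESeq2 gave 19 of the 32 no adjusted p. *Fbp1* was 680 ± 260 CPM in SAL and 859 ± 443 CPM in PRL. It encodes an enzyme of glucose synthesis. *Dnase1*, a secreted nuclease, was 4119 ± 1593 and 3603 ± 1351 CPM.

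Among themselves, the members did not vary as a block across the 12 libraries of experiment 2. Of 15 pairs of the 6 members with a count in every library, *Spp1* and *Vim* had the highest correlation of log2(CPM + 1), with Pearson's r = 0.76 (permutation p = 0.00329, Benjamini-Hochberg adjusted 0.0493) and Spearman's rho = 0.69 (permutation p = 0.0157, adjusted 0.236). It was 0.78 within SAL and 0.79 within PRL, and 0.45 once the 2 libraries with the most extreme *Spp1* values were left out. No other pair passed after adjustment. *Clu* and *Krt8* had r = 0.60 (permutation p = 0.0423, adjusted 0.317), with 0.84 within SAL and −0.24 within PRL, so the pooled value did not hold within both groups. *Krt7* and *Krt8* had r = 0.33 overall (permutation p = 0.289, adjusted 0.718), with −0.15 within SAL and 0.89 within PRL.

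The genes with the most similar pattern, among 5634 with a count in all 12 libraries, were *Ccdc28b* (r = 0.93) and *Mgp* (r = 0.88) for *Clu*, *Nfkb2* (0.96) and *Tmem251* (0.95) for *Spp1*, and *Ola1* (0.92) and *Tmem243* (0.86) for *Vim*. For the keratins they were *Retreg2* (0.89) and *Pigc* (0.87) for *Krt7*, *Cct7* (0.90) and *Entpd5* (0.87) for *Krt8*, and *Ddx17* (0.90) and *Mt3* (0.88) for *Krt19*. These are descriptions over libraries that share depth and group, with no test. The stricter filter, a count in all 12 libraries, kept only 2 urothelium, 9 collecting duct and 23 injury list genes. None of these stood among the 2 nearest genes of any of the 6 members. With so few candidates this was likely in advance, and no conclusion is drawn from it.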

How the data were processed

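Kidney RNA of 24 hamsters, 12 per experiment on 1 flow cell each, was sequenced as nanopore cDNA with barcodes. The labels name a PCR cDNA kit and the study's methods a direct cDNA kit. The authors basecalled with Guppy, trimmed with Porechop, selected reads with Filtlong and aligned them to the mouse reference with Minimap2. Their processing notes also name Salmon, without its role or version. The deposited values are estimated counts per transcript, nearly all whole, and were rounded here to whole numbers.

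For each gene the transcript of highest total was kept. CPM are those counts scaled to a library total of 1000000. Genes counted in 4 or more of 12 libraries (experiment 1) or 6 or more (experiment 2) were fitted per experiment with edgeR 4.0.16 (R 4.3.3; TMM factors, quasi-likelihood test, Benjamini-Hochberg over all genes fitted, threshold 0.05). Single members were also tested with two-sided exact permutation tests of mean CPM, unadjusted; correlations used 100000 permutations. The 95% intervals of log2 fold changes are the estimate and its SE under a normal approximation. Limits for a count of 0 use 3 counts. Depth per library sets the value of 1 count, given with the results. Groups and replicate numbers come from sample titles; p-values measure spread between animals. No 2 libraries of the same group agreed within sampling noise, and pairs from different groups were not compared.

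Alternatives were no filter, a stricter filter (8 of 12 libraries, 12 of 12), DESeq2 1.42.0, sums over transcripts, a replicate block and each library left out; library totals without TMM factors and 2 pairs of libraries left out (LP 2 and 3, PRL 1 and 2) were added after seeing the data. The fits were tested on simulated data. The text names all 10 members, each list gene past the adjusted threshold, the 3 list genes of highest CPM, the top gene of marker lists a result turns on, and the 2 nearest genes of each member; list genes under an unadjusted p of 0.05 were named after their values were seen. The members, the pathway lists (injury response and proximal tubule differentiation) and the 11 marker lists were chosen with earlier results of these data known. A gene of the proximal tubule list is not reported here. No sequence is printed, since none was given for these genes.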

Additional observations from a re-analysis of the deposited data

Results flagged for a closer look

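In 8 of 38 sets of 4 or 6 libraries examined, 1 library lay far from the rest of its group. The measure was the gap to the next value over the range of the group. Sets with 0 counts throughout could not be flagged. A set with a count in only 1 library is always flagged, so no chance rate is given. In 7 of the 8 the value is that of 1 count, with 0 in the other libraries of the group. These were *Clu* in SP12wk replicate 4 (28.3 CPM), *Krt8* in SP12wk replicate 1 (40.9 CPM) and in SP28wk replicate 3 (28.6 CPM), *Krt18* in SP12wk replicate 3 (50.2 CPM), *Havcr1* and *Lcn2* in PRL replicate 5 (5.75 CPM each), and *Sox9* in PRL replicate 3 (3.95 CPM). The eighth was *Spp1* in SAL replicate 6, at 60.8 CPM from 19 counts, below the next lowest SAL library at 132 CPM. The same library was also the lowest for *Vim*, at 28.8 CPM.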

How the results depend on the processing

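The number of members called was 0 under every alternative and with any library left out. The log2 fold changes of *Clu*, *Krt7*, *Krt8*, *Krt18* and *Krt19* in PRL minus SAL stayed above 0 throughout. Members at an unadjusted p under 0.05 in that comparison numbered 3, and 2 with DESeq2 (which gave none of the 7 an adjusted p) or the stricter filter, 0 with sums over transcripts, 0 with PRL replicates 1 and 2 left out together, and 2 to 3 with any library left out. Values of members that changed sign were *Vim* in SP12wk minus LP (−0.14 with LP replicates 2 and 3 left out together) and, with 1 library left out, *Spp1* in SP28wk minus SP12wk (−0.95 to 0.13), *Vim* in PRL minus SAL (−0.12 to 0.16) and *Spp1* there (−0.25 to 0.015). None of these was called.

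The number of all genes called moved more. For SP12wk minus LP it was 1, and 0 with no filter, the stricter filter, DESeq2, sums over transcripts, the replicate block or no TMM factors, 2 with LP replicates 2 and 3 left out together, and 0 to 9 with any library left out. For SP28wk minus SP12wk it was 7, and 2 with the stricter filter or DESeq2, 0 with sums, 18 with LP replicates 2 and 3 left out together, and 2 to 11. For SP28wk minus LP it was 11, and 5 with the stricter filter, 2 with DESeq2, 0 with sums, 2 with LP replicates 2 and 3 left out together, and 8 to 56. For SP12wk minus the mean of LP and SP28wk it was 2, and 0 with no filter, the stricter filter, DESeq2 or sums, 7 with LP replicates 2 and 3 left out together, and 0 to 2. For PRL minus SAL it was 0, and 92 with no filter, 1 with sums, 52 with the replicate block, 1 with PRL replicates 1 and 2 left out together, and 0 to 44. The cause was not tested.

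The replicate numbers did not pair the libraries. Correlations of same-numbered libraries were −0.09 to 0.17 in experiment 1 and −0.14 to 0.20 in experiment 2, and a library correlated best with its own number in 6 of 24 and 2 of 12 cases. The block changed no member's call. Depth limits the photoperiod comparisons most, where 1 count is worth 17.4 to 63.7 CPM.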
